A study of Mus musculus with 5 samples.

Results

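Nucleoporins and nuclear transport factors were examined for CREB and H3K4 peaks in chromatin of the mouse fetal testis. The genes were chosen by symbol from the protein-coding genes of the mm10 RefSeq annotation, taking the Nup, Kpna, Kpnb1, Ipo, Xpo, Tnpo, Ran and Ranbp names that carry a number, plus Ran itself. This gave 51 of 21887 genes, and 40 of the 51 have an entry with strand and sequence in the RefSeq promoter table (GRCm38.p6) used here. Each chromatin profile came from CUT&RUN, in which an antibody tethers a nuclease that cuts out the DNA around its target, on 100000 dissociated male gonadal cells. A CREB antibody was used on testes of embryonic day E13.5, then of E16.5 and of E18.5, and an H3K4 antibody on those of E18.5, with 1 library per group. No genotype, strain or treatment is named in the labels, and the methylation state that the H3K4 antibody reads is not named either. An IgG library of the series was not analysed here. The deposited lists give positions only, the peaks are of 1 width within a list (150, 630, 160 and 210 bp in the order above), the read depth is unknown, and no difference below has a replicate check. The cells were a mixture, so a peak present in few cells and a weak peak in all cells cannot be told apart. Of 12 marker genes of the fetal testis, listed after the files were seen, 7 had an H3K4 peak at an end. This is near the 52.7% of all protein-coding genes with one, so the count does not identify the tissue. The 7 were the Sertoli cell genes Sox9, Amh and Dhh, the Leydig cell genes Cyp11a1 and Star, the gonadal factor gene Nr5a1 and the germ cell gene Dazl. The peak was absent at Insl3, Ddx4, Dppa3, Gata4 and Wt1.

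The nuclear pore complex is the channel through which proteins and RNA pass between nucleus and cytoplasm. Scaffold nucleoporins form its rings, nucleoporins rich in phenylalanine-glycine repeats fill its channel, and filaments and a basket extend from its faces. Importins and exportins carry cargo through the pore, and the small GTPase Ran, bound to GTP in the nucleus and to GDP in the cytoplasm, gives this transport its direction. CREB is a transcription factor that is phosphorylated after a rise in cAMP and binds the cAMP response element, or CRE, whose palindrome is TGACGTCA and whose core is TGACG. Methylation of H3K4 marks active promoters and enhancers.

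A gene was taken to carry a peak if one overlapped the 1000 bp on either side of its annotated start or end. By this rule 16 of the 51 genes (31.4%, 95% Wilson interval 20.3 to 45.03) had a CREB peak at any stage, against 16.7% of all protein-coding genes. Nup133, Nup98, Ranbp2 and Ipo11 had a peak at all 3 stages. Kpnb1, Nup62, Nup153, Nup155, Nup214, Ranbp1 and Ranbp3 had one at E16.5 and E18.5. Nup50, Nup88 and Ranbp6 had one at E16.5 alone, and Nup54 and Nup107 at E18.5 alone. None of the 6 importin alpha genes and none of the 5 exportin genes of the group had a CREB peak at an end. In sets this small, that lies near the 16.7% of all protein-coding genes. The exportin genes Cse1l and Xpot, which the symbol rule does not take, had CREB peaks.

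The promoters that carry these peaks are shown first, because CRE letters stand in several of them. The following stretches come from the RefSeq promoter table (GRCm38.p6), which spans 250 bases before to 50 after a gene start, read 5′ to 3′ on the strand of the gene. Within each stretch, capitals mark every TGACG core on either strand and the full CRE, and no more than 30 bases after the start are shown. The first set holds the genes called in every CREB list.

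Nup133 (chr8:123949247-123949419, minus strand, from -154 to 19): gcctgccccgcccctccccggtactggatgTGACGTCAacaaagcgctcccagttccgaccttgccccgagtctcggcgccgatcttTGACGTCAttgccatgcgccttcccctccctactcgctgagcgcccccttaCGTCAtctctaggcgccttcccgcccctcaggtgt

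Nup98 (chr7:102210137-102210294, minus strand, from -128 to 30): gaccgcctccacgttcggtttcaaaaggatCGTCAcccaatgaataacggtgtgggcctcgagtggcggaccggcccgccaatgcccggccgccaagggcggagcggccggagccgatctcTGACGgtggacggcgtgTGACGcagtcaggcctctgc

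Ranbp2 (chr10:58446661-58446873, plus strand, from -191 to 22): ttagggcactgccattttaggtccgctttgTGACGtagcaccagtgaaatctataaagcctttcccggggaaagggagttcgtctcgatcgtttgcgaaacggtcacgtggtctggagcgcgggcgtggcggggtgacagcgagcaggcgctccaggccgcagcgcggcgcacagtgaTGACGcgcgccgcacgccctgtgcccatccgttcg

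Ipo11 (chr13:106936929-106936981, minus strand, from -23 to 30): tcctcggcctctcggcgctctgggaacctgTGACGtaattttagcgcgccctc

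A second set was chosen after its values were seen. Nup214 and Ranbp6 are the other genes of the group with a full CRE, and at Ipo5 the CREB peaks lie at a start inside the annotated gene.

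Nup214 (chr2:31974376-31974443, plus strand, from -74 to -7): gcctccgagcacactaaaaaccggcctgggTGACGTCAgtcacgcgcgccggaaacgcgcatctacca

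Ranbp6 (chr19:29812981-29813048, minus strand, from -74 to -7): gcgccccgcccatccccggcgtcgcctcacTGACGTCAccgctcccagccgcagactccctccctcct

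Ipo5 (chr14:120910944-120910991, plus strand, from -250 to -203): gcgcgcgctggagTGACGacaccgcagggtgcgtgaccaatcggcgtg

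The full CRE occurred in 3 of the 40 promoters (7.5%), those of Nup133, Nup214 and Ranbp6. It was in 2.54% of all 17492 protein-coding genes in the table and in 3.68% of those with an H3K4 peak. Nup133 held it at 2 places, with first bases at -124 and -67 from the gene start. The -67 copy lay wholly within the CREB peak at each of the 3 stages, and the -124 copy within the E16.5 and E18.5 peaks. In Nup214 the CRE began at -44 and lay within the E16.5 and E18.5 peaks. In Ranbp6 it also began at -44 and lay within the E16.5 peak. All 4 CRE copies were thus under a CREB peak, and none of the 25 promoters of the group without a CREB peak at the gene ends held the full CRE. Over all protein-coding genes it stood in 14.9% of promoters with CREB in every list and in 0.984% of those with no CREB peak.

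The core, which is part of every full CRE, occurred in 17 of the 40 promoters (42.5%), against 26.2% of all protein-coding genes and 34.9% of those with an H3K4 peak. It was in all 4 genes with CREB at 3 stages, in 5 of 11 with CREB at 1 or 2 stages, and in 8 of 25 with no CREB peak at a gene end, Ipo5 among them. Over all protein-coding genes it stood in 72.7% of promoters with CREB in every list and in 19.7% of those with no CREB peak. At Ranbp2 the core at -161 lay within the peak at every stage, while those at -13 and 34 lay only within the wider E16.5 peak. At Ipo11 the core at 8 lay within the peaks of all 3 stages. At Nup98 the core at -98 lay within the E13.5 and E16.5 peaks, and no core of its promoter entries lay within the E18.5 peak. Other motifs were searched on both strands as well. CCAAT, the box bound by NF-Y, was in 52.5% of the promoters of the group against 42.3% of all protein-coding genes, and GGGCGG, the box bound by Sp1, was in 72.5% against 49.2% of all and 70.4% of genes with an H3K4 peak. The Kpnb1 promoter entry held 3 CCAAT boxes within the E16.5 peak and no core. The entry stops 250 bases before the start, so the rest of that peak and the whole E18.5 peak of Kpnb1 were not searched. Every E16.5 peak, at 630 bp, is wider than an entry, so none lies wholly within one. At Nup50 and Nup88, for example, even the E16.5 midpoints, 316 and 340 bp upstream, lay outside the entry. E18.5 peaks that reach beyond their entries include those at Nup98, Nup62 and Ranbp1. A missing core in an entry therefore does not show that none lies under the peak. A match of these letters is a description of the sequence and not a measured site.

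**Figure D1:**
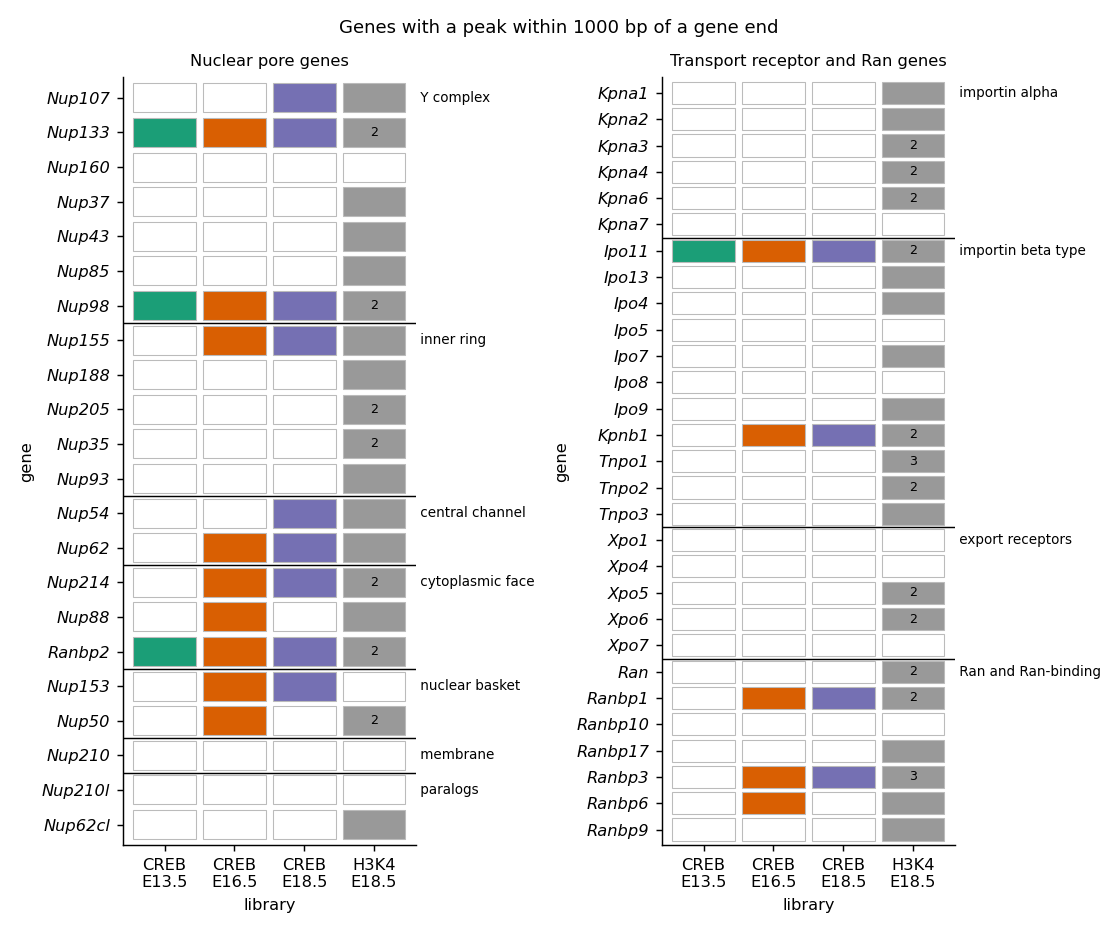
Peaks within 1000 bp of a gene end for each of the 51 genes (rows, grouped by role) in each of the 4 libraries (columns). A filled box stands for at least 1 peak and a number gives the peaks where there was more than 1. The 4 genes with CREB at every stage are Nup133, Nup98, Ranbp2 and Ipo11. The 6 importin alpha and 5 export receptor rows hold no CREB peak, beside 16.7% of all protein-coding genes with one at any stage.

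At E13.5 4 of the 51 genes (7.84%, lower bound of the interval 3.09) had a CREB peak, against 3.94% of all protein-coding genes. At E16.5 there were 14 (27.5%, 17.1 to 40.9), against 14.9%, and at E18.5 13 (25.5%, 15.5 to 38.9), against 12.9%. The E16.5 and E18.5 shares of all genes lay below the intervals, and the E13.5 share lay above that lower bound. The 4 genes with a peak at all 3 stages (7.84%) stood beside 3.83% of all genes, the 7 with E16.5 and E18.5 but not E13.5 beside 7.29%, and the 5 with a single stage beside 5.48%. The intervals cover counting error over genes only, and genes are not replicates.

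H3K4 peaks were at the ends of 40 of the 51 genes (78.4%, 65.4 to 87.5), against 52.7% of all protein-coding genes. Among these 40 genes the CREB shares were 10% (3.96 to 23.1) in the E13.5 library, 32.5% (20.1 to 48.0) in the E16.5 library and 30% (18.1 to 45.4) in the E18.5 library. All protein-coding genes with an H3K4 peak gave 7.2%, 27.0% and 23.4%, which lay inside these intervals.

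**Figure D2:**
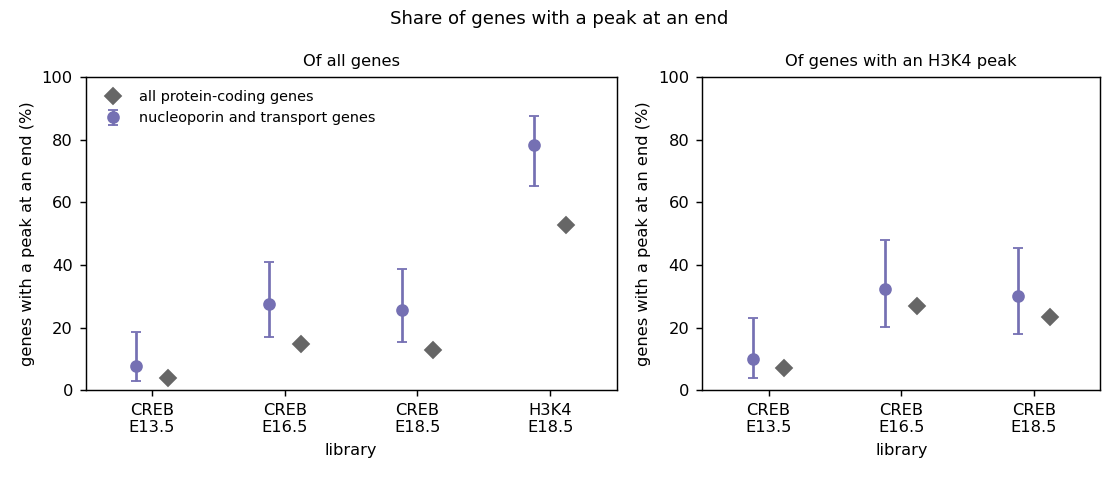
Share of genes with a peak at an end (%, vertical axis) in each library, over all genes (left) and over genes with an H3K4 peak (right). Circles are the nucleoporin and transport genes with 95% Wilson intervals, and diamonds are all protein-coding genes. At E16.5 the circle is at 27.5% and the diamond at 14.9% on the left, and at 32.5% and 27.0% on the right.

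Pore genes made up 11 of the 16 genes with CREB. Of the 22 genes of the pore, 11 had a CREB peak at any stage (50%, 30.7 to 69.3), and of the 29 genes of receptors and the Ran system 5 had one (17.2%, 7.6 to 34.5), beside 16.7% of all protein-coding genes. H3K4 was present at 18 of the 22 and 22 of the 29, beside 52.7% of all. Of the 11534 protein-coding genes with an H3K4 peak, 3471 had a CREB peak at any stage, a larger share than the 16.7% of all genes. The pools were not set against that share. This pooling of the role groups was made after their counts were seen, and the difference was not tested. Among the further genes that the symbol rule does not take, given below, the shares were closer. There 4 of 10 pore genes and 4 of 9 receptor and Ran cycle genes had a CREB peak.

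The role groups below hold only genes that the symbol rule takes, and so are not complete. Their counts stand beside 16.7% of all protein-coding genes with a CREB peak at any stage, and 3471 of the 11534 with an H3K4 peak. The sets are small, and none was tested against either share. Among scaffold nucleoporins, 3 of the 7 such genes of the Y complex, the building block of the outer rings, had a CREB peak. Nup133, which helps tether the complex to the membrane, had its peaks at chromosome 8, 123949229 to 123949378 at E13.5, 123949034 to 123949663 at E16.5 and 123949242 to 123949401 at E18.5. Their midpoints lay 38, 83 and 56 bp upstream of the gene start. Nup98, which encodes a channel nucleoporin and, from the same precursor, the scaffold protein Nup96, had peaks at chromosome 7, 102210249 to 102210398 at E13.5, 102210122 to 102210751 at E16.5 and 102210350 to 102210509 at E18.5. The midpoints at Nup98 lay 157, 270 and 263 bp upstream. The same peaks lay within 1000 bp of an end of Pgap2. Nup107, the partner of Nup133 in the Y complex, had a peak at E18.5 alone, with its midpoint 169 bp upstream, and the nearest E16.5 midpoint was 349023 bp away. Nup37, Nup43, Nup85 and Nup160 had none at an end, and at Nup160 peaks at E16.5 (chromosome 2, 90679219 to 90679848) and E18.5 (90679140 to 90679299) lay inside the gene, 2318 and 2004 bp after its start.

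In the inner ring, which anchors the channel, 1 of 5 genes had CREB peaks. Nup155 had them at E16.5 and E18.5, with midpoints 35 and 55 bp upstream of its start in the promoter table. Nup35, Nup93, Nup188 and Nup205 had H3K4 peaks and no CREB peak. Both central channel genes that the symbol rule takes had CREB peaks. Nup62 had them at E16.5 and E18.5, with midpoints 234 and 253 bp upstream, and Nup54 at E18.5, 150 bp upstream. The Nup62 peaks also lay within 1000 bp of Atf5 and Il4i1b.

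All 3 genes that the symbol rule takes from the cytoplasmic face, where exported RNA leaves the pore, had CREB peaks. Ranbp2, which encodes the filament protein also called Nup358, had peaks at chromosome 10, 58446669 to 58446818 at E13.5, 58446424 to 58447053 at E16.5 and 58446673 to 58446832 at E18.5. Their midpoints lay 109, 114 and 100 bp upstream, and so differed by 5 to 14 bp between stages. Nup214, which binds export factors, had peaks at E16.5 and E18.5, near an end of Aif1l as well. Their midpoints lay 28 and 111 bp upstream of the Nup214 start in the promoter table. Nup88, the partner of Nup214, had a peak at E16.5 alone (chromosome 11, 70969999 to 70970628), 340 bp upstream and nearer to an end of Rpain than to its own.

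Both nuclear basket genes that the symbol rule takes had CREB peaks, and Tpr, which it does not take, is given below. At Nup153, which attaches the basket to the pore, the midpoint lay 76 bp after the start at E16.5 and 53 bp upstream at E18.5, and the 2 peaks overlapped. Nup50, which helps release cargo from importin alpha, had a peak at E16.5 alone, 316 bp upstream. The membrane nucleoporin gene Nup210 and the paralogs Nup210l and Nup62cl had no CREB peak at an end.

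Ranbp6, a relative of Ipo5 with a CREB peak at E16.5, was grouped by name with the Ran-binding genes below. Among the 11 genes grouped as import receptors of the importin beta type, Ipo11 and Kpnb1 had CREB peaks. At Ipo11 they were at chromosome 13, 106936914 to 106937063 at E13.5, 106936628 to 106937257 at E16.5 and 106936799 to 106936958 at E18.5, with midpoints 30 bp upstream, 16 bp after and 80 bp after the start. Kpnb1, importin beta itself, had peaks at E16.5 and E18.5 with midpoints 363 and 334 bp upstream, the farthest upstream in the group at either stage. Ipo4, Ipo7, Ipo9, Ipo13, Tnpo1, Tnpo2 and Tnpo3 had H3K4 peaks and no CREB peak. Of these, Tnpo2, a carrier of RNA-binding proteins, had the nearest CREB peaks, at chromosome 8, 85059737 to 85060366 at E16.5 and 85059982 to 85060141 at E18.5, which lay 2152 and 2397 bp outside the gene, at Fbxw9. Ipo8 had neither mark at an end. Ipo5, a receptor for ribosomal proteins and histones, had no peak at an outer end. Its peaks at E16.5 and E18.5 (chromosome 14, 120910594 to 120911223 and 120910902 to 120911061) lay inside the annotated gene, 286 and 213 bp upstream of a start given by the promoter table. Its core at -237 lay within both. Counting every such start brought the E16.5 and E18.5 counts to 15 and 14 by adding Ipo5, beside 16.0% and 13.8% of all protein-coding genes.

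The importin alpha genes, adaptors that read the classical nuclear localisation signal, had H3K4 peaks at Kpna1, Kpna2, Kpna3, Kpna4 and Kpna6 and none at Kpna7. The CREB peaks nearest to Kpna1 and Kpna6 stood 3781 and 2605 bp away at E16.5, and lay at Wdr5b and Txlna. Among export receptors, Xpo5 and Xpo6 had H3K4 peaks at their starts. Xpo1, the exportin for proteins with a leucine-rich signal, had neither mark at an end. At Xpo4 a CREB peak lay inside the gene at E16.5 and at Xpo7 at E18.5, 3293 and 4046 bp from the nearest end.

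Ran had 2 H3K4 peaks at its start and no CREB peak, the nearest CREB midpoints being 762822 bp away at E13.5, 691151 bp at E16.5 and 762821 bp at E18.5. Ranbp1, which stimulates GTP hydrolysis on Ran together with its GTPase-activating protein, had peaks at E16.5 (chromosome 16, 18248635 to 18249264) and E18.5 (18248864 to 18249023). Their midpoints lay 255 and 249 bp upstream, nearer to an end of Trmt2a. Ranbp3, a cofactor of Xpo1, had peaks at the same 2 stages, with midpoints 43 and 45 bp outside the gene end. Ranbp6, a relative of Ipo5, had a peak at E16.5 (chromosome 19, 29812679 to 29813308) with its midpoint 19 bp upstream, while peaks at E13.5 and E18.5 near its other end stood 1487 and 1407 bp off and lay at 9930021J03Rik. Ranbp9, Ranbp10 and Ranbp17 had no CREB peak at an end. At Ranbp10 peaks at E16.5 and E18.5 lay inside the gene, within 1000 bp of an end of Tsnaxip1.

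For each gene and library, the distance from a gene end to the closest edge of the nearest CREB peak was taken. None of these distances lay between 255 and 1233 bp. The largest within the 1000 bp window was at Kpnb1, 255 bp at E18.5. The smallest beyond the window was at Nup210l, 1233 bp at E16.5 (chromosome 3, 90213384 to 90214013), where the peak lay at Rab13 and Rps27. In all, 16 genes of the group had no CREB midpoint within 100 kb of an end at any stage, among them Ran, Kpna2, Kpna4, Nup35 and Tnpo1.

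**Figure D3:**
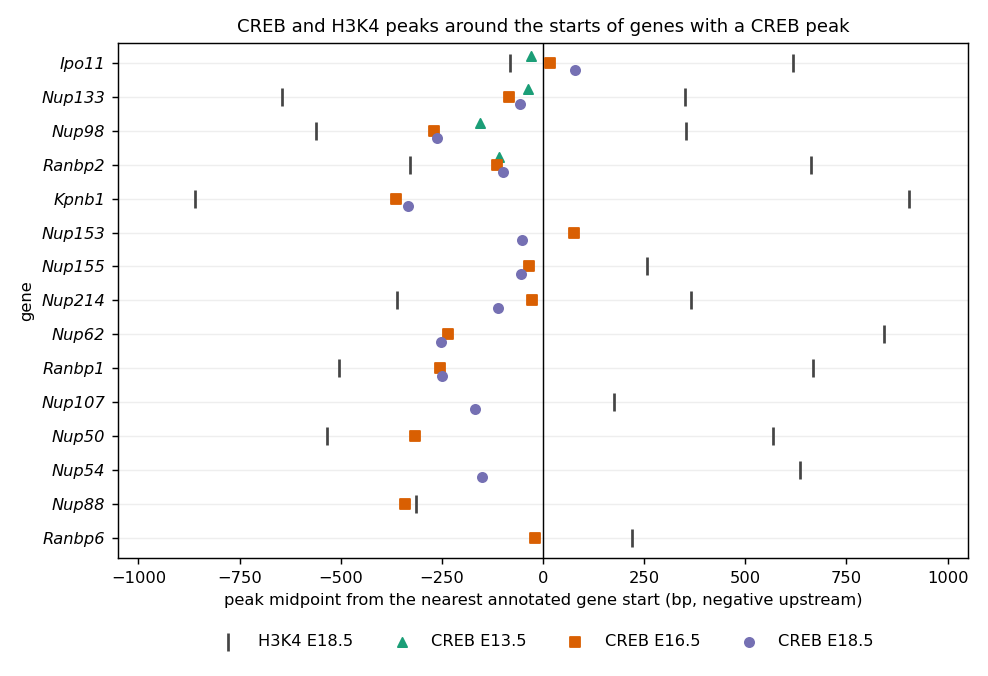
Midpoints of CREB and H3K4 peaks (horizontal axis, bp from the nearest annotated gene start, negative upstream) at the 15 genes that have a CREB peak and a known strand (rows). CREB is drawn as triangles for E13.5, squares for E16.5 and circles for E18.5, and H3K4 as vertical bars. CREB midpoints lie between -363 and 80, and H3K4 bars often stand on both sides, as at Nup133, Nup98, Ranbp2 and Ranbp1.

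The side of the gene was read for each CREB peak. In all 29 pairs of a peak and a gene with known strand, the peak was at the start and not at the far end, beside 96.2% of the E13.5 pairs, 94.1% of the E16.5 pairs and 94.5% of the E18.5 pairs over all protein-coding genes, so this count lies near the background. Midpoints ran from -157 to -30 bp at E13.5 (median -73), from -363 to 76 at E16.5 (median -114) and from -334 to 80 at E18.5 (median -130). They lay upstream of the start in 4 of 4, 11 of 13 and 11 of 12 pairs. These positions are from the nearest start in the promoter table, which can differ from the annotated end of the gene. The E16.5 midpoints at Nup155 and Nup214, counted as upstream, lay 15 and 14 bp inside the annotated gene. Where a gene had a peak at 2 stages the peaks overlapped in every case, and midpoints differed by a median of 45 bp between E13.5 and E16.5, 62 bp between E13.5 and E18.5 and 20 bp between E16.5 and E18.5, with 129 bp at Nup153 as the most.

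H3K4 peaks stood beside most CREB peaks of the group at E18.5 without touching them. In this stage, which both antibodies share, 1 of 13 CREB peaks of the group overlapped an H3K4 peak (7.69%, 1.37 to 33.3), the one at Ipo11, beside 34.4% of the CREB peaks at protein-coding gene ends. H3K4 midpoints stood on both sides within 1000 bp of 7 of these 13 peaks (53.8%, 29.1 to 76.8), beside 27.6% of all such peaks. At Nup133 the H3K4 midpoints lay 646 bp upstream and 352 bp after the start, and at Ranbp2 329 and 662 bp. At Nup98 they lay 561 bp upstream of the outer start and 653 bp after it, the latter being 354 bp after a start inside the gene. The wider E16.5 peaks overlapped H3K4 in 10 of 14 cases, beside 72.0% of all such peaks, and the E13.5 peaks in 1 of 4, beside 33.0%. E13.5 and E16.5 were compared here with H3K4 of a later stage.

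The number of H3K4 peaks was counted at the ends of genes with and without CREB, and the difference was not tested. Of the 16 with CREB, 15 had at least 1 H3K4 peak and 9 had 2 or more (56.2%), whereas of the 35 without CREB 25 had at least 1 and 10 had 2 or more (28.6%). Over all protein-coding genes, 94.9% of those with CREB and 44.2% of those without had at least 1, and 42.1% and 12% had 2 or more. Nup153 was the only gene of the group with CREB and no H3K4 peak at an end, and its nearest H3K4 peak was 1027 bp from the gene end, inside the gene. The other 10 genes without an H3K4 peak at an end were Ipo5, Ipo8, Kpna7, Nup160, Nup210, Nup210l, Ranbp10, Xpo1, Xpo4 and Xpo7. Of the 11 in all, 8 had an H3K4 peak in the gene body, and at Ipo8 and Nup210 as well as Ipo5 one lay within 1000 bp of a start in the promoter table.

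Most genes of the group with CREB at E16.5 or E18.5 had it at both. All 4 genes with CREB at E13.5 had it at E16.5 and E18.5, beside 98.3% and 98.8% of all genes with an E13.5 peak. Of the 14 genes at E16.5, 11 were also listed at E18.5 (78.6%, 52.4 to 92.4), beside 74.4%, and 11 of the 13 at E18.5 were listed at E16.5 (84.6%, 57.8 to 95.7), beside 86.4%. Of the genes seen at a single stage, Nup50 and Nup88 had the nearest E18.5 midpoint 45267 and 34586 bp away, and Nup54 the nearest E16.5 midpoint 70095 bp away.

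**Figure D4:**
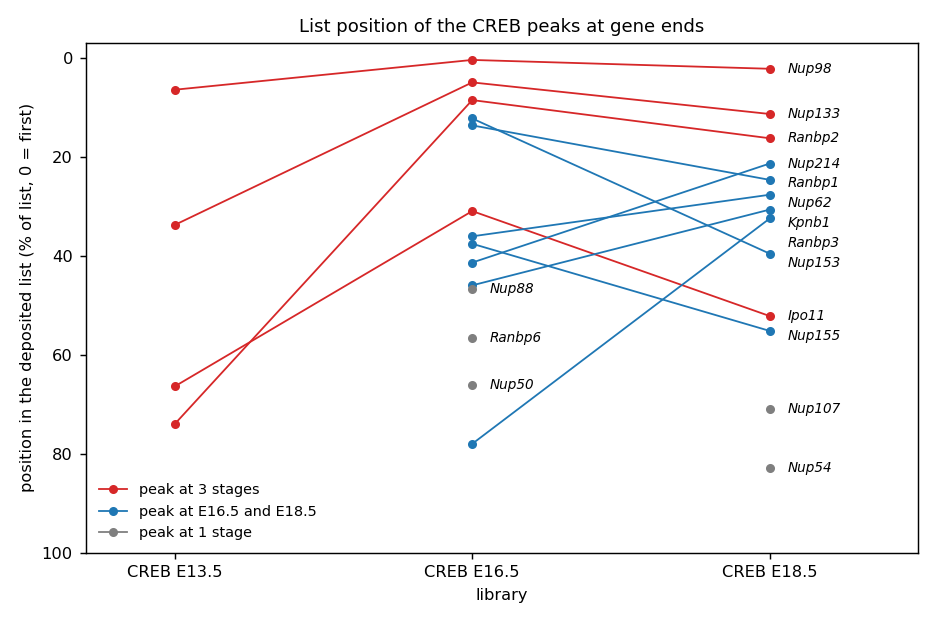
Position of each CREB peak in its deposited list (vertical axis, percent of the list, 0 at the top being the first entry) by stage. Lines join the peaks of 1 gene, in red for genes with a peak at 3 stages and blue for E16.5 and E18.5, and gray points are genes with a peak at 1 stage. Nup98 is the earliest at each stage, and the gray points lie between 46.8% and 82.8%.

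What sets the order of peaks in the deposited lists is not stated in any label, so positions are a description only. Nup98 was the first of the group at every stage, standing in position 56 of 862 peaks at E13.5, in position 17 of 3528 peaks at E16.5 and in position 67 of 2957 peaks at E18.5. Nup133 followed in positions 291, 177 and 336. Ranbp2 stood in 638, 303 and 482, and Ipo11 in 572, 1092 and 1543. Genes seen at a single stage stood between 46.8% of the list, for Nup88 at E16.5, and 82.8%, for Nup54 at E18.5. Among genes seen at both of these stages, Ranbp3 stood at 78.0% of the E16.5 list and 32.5% of the E18.5 list. The group's median position was 50.1% of the E13.5 list, 36.9% of the E16.5 list and 30.7% of the E18.5 list, beside 50.2%, 44.7% and 46.9% for all peaks at protein-coding gene ends.

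Other genes of nuclear transport, which the symbol rule does not take, had CREB peaks in 13 of 39 cases, beside 16.7% of all protein-coding genes. A peak was listed for 3 at E13.5 (all genes 3.94%), for 11 at E16.5 (14.9%) and for 10 at E18.5 (12.9%), and H3K4 was present at 29 (52.7%). Tpr, the main protein of the nuclear basket, Cse1l, the exportin that returns importin alpha to the cytoplasm, and Thoc1, a subunit of the THO complex of messenger RNA export, had a peak at all 3 stages. Of 10 further pore and pore assembly genes, 4 had CREB: Tpr, Rae1, Ahctf1 and Gle1. Pom121, Pom121l2, Ndc1, Aaas, Seh1l and Sec13 had none. Of 9 further receptor and Ran cycle genes 4 had it: Cse1l, Xpot and Nutf2, the import factor of Ran, at E16.5 and E18.5 or more, and Rangap1, the GTPase-activating protein of Ran, at E18.5. The exchange factor gene Rcc1 had none. Of 20 RNA export genes 5 had a CREB peak, namely Thoc1 at every stage, Nxf1, Alyref2 and Thoc6 at E16.5 alone, and Nxt1 at E18.5 alone.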

How the data were processed

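The authors deposited 1 peak list per library, with chromosome, start and end and no score, fold or read count, in mm10 coordinates. Per the submitters' processing notes, reads went through Trim Galore 0.6.10, Bowtie2 2.5.2 and MACS2; for MACS2 the version, the settings and the part played by the IgG library were not found in these notes. Of 5 libraries, 4 have a list here, mapped to groups by title. Peaks on unplaced scaffolds were left out.

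Gene positions came from RefSeq for GRCm38.p6, which shares mm10 coordinates, and strand and sequence from its promoter table. It has no entry for Kpna1, Kpna3, Kpna6, Nup35, Nup43, Nup85, Nup210l, Ranbp3, Ranbp10, Xpo4 and Xpo7. An overlap needed 1 bp. Unless another start is named, distances from a gene start were taken from the nearest start in the promoter table. Positions are 1-based, and base counts from a gene start have no zero.

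With 1 library per group there was no test between groups. Every gene with CREB is named, and peak coordinates are given for those with 3 stages and for genes whose CREB calls change with the gene-end window, the starts counted or the nearest-gene rule. The genes, role groups and lists were chosen with earlier results of these data known. Alternatives were gene ends of 500 and 2500 bp, midpoints, a common 150 bp width, gene starts only, the first 862 peaks, the nearest gene only and, added after seeing the data, every start of the promoter table. The code for gene calls was checked on simulated peaks planted within reach of the rule, and 200 of 200 were found among 21887 genes in each library. This checks the overlap search only and not how well the deposited lists detect binding. Python 3.11.15, numpy 2.4.6, scipy 1.17.1 and matplotlib 3.10.9 were used.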

Additional observations from a re-analysis of the deposited data

How the results depend on the processing

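Of 55 counts recomputed under the 8 alternatives, 52 stayed within 1.5 times the count reported. The 3 that moved came from taking the first 862 peaks of each CREB list, which by construction holds fewer peaks. At E16.5 there were 5 genes in place of 14, beside 4.36% of all protein-coding genes under the same setting. At E18.5 there were 6 in place of 13, beside 4.29%. With E16.5 and E18.5 but not E13.5 there was 1 in place of 7, beside 0.535%. The 5 at E16.5 were Nup98, Nup133, Nup153, Ranbp1 and Ranbp2, and Ipo11 lost its place among genes with all 3 stages. A gene end of 500 bp and a common width of 150 bp changed no CREB call of the group. A gene end of 2500 bp added Nup160, Nup210l and Tnpo2 at E16.5 and E18.5 and Ranbp6 at E13.5 and E18.5. Counting a peak only for the nearest protein-coding gene removed Ranbp1 at both stages and Nup88. With unknown depth, the lack of a peak in these lists does not show that CREB was absent there, and the 630 bp width at E16.5 raises overlap with H3K4 and with motifs. No paired analysis was possible because each group holds 1 library.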
